A study of Mus musculus with 23 samples.

Results

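The 9 genes of VEGF and angiopoietin signalling followed here in single cells of mouse brain are the receptors Flt1, Kdr, Flt4, Tek and Tie1 and the ligands Vegfa, Vegfc, Angpt1 and Angpt2. They were taken by symbol from the 32285 genes of the count matrix, and all 9 were found. VEGF-A, the product of Vegfa, is a secreted growth factor that binds VEGFR2 (Kdr) and VEGFR1 (Flt1). VEGFR2 carries most of the growth, survival and permeability signal, and VEGFR1 binds the ligand tightly with weak signalling of its own. VEGF-C acts mainly through VEGFR3 (Flt4), the receptor best known from lymphatic vessels and from sprouting. Angiopoietin 1 activates TIE2 (Tek) and keeps vessels quiescent, angiopoietin 2 opposes it in many settings, and TIE1 is a partner receptor with no high-affinity angiopoietin ligand. In brain, perivascular cells and astrocytes are known sources of the ligands, and the endothelium of the blood-brain barrier carries the receptors.

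The study followed how antibodies reach brain cells. An antibody transport vehicle (ATV) carries a receptor-binding site in its Fc part so that endothelial cells move it across the barrier. ATV-TfR went into mice whose transferrin receptor is a mouse/human knock-in (TfR mu/hu KI), ATV-CD98hc into mice with the equivalent CD98hc allele (CD98hc mu/hu KI), and a control IgG into C57BL/6J mice. Genotype and antibody therefore coincide and cannot be told apart. All antibodies carried the dye AF647 and were given once, intravenously, at 45 mg/kg, 24 h before the brains were taken. The mice are given as 3.3 months old in the labels and as 12 weeks old in the series text. Each pool joined 1 male and 1 female mouse, without olfactory bulbs, cerebellum, pons and medulla, and the tissue was dissociated with actinomycin D and anisomycin, which block transcription and translation. Live cells were sorted by AF647 signal into a negative bin and low, medium and high bins, with gates set at the tertiles of the positive cells of ATV-TfR mice and used for every antibody. The bins thus compare cells that took up different amounts of antibody in the same mice. There were 2 pools per antibody, and 23 libraries in 12 groups. The control IgG negative bin had 1 library (replicate 2) and every other group had 2.

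Library totals ranged from 1861238 to 90307818 UMIs (unique molecular identifiers, counts of captured RNA molecules), and the median cell of a library held between 2189 and 4894. After filters and removal of doublets, 218732 cells were kept, and 195787 of them lay in clusters that carried the markers of 1 of 17 classes. The members and the other genes of the pathway took no part in the clustering and are in no marker list. The endothelial-like class held 84724 cells and showed all 12 of its markers in every library with at least 20 such cells. The astrocyte-like class held 75539 cells and showed all 9 of its markers likewise. Endothelial-like cells were few in the negative bins of both ATVs (52 to 117 per library) and numerous in the high bins (8277 to 13968). The control IgG high libraries held 10 and 13, and no contrast with them was fitted. The classes are rebuilt from markers, so shares and levels can differ from those under the study's own cell names.

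The promoters of the members that have an entry in the RefSeq table (GRCm38.p6) are shown because 5 of them, the receptors, were high in the same class while the Vegfa promoter belongs to a gene that was lowest there when all bins were pooled. Each line is the 120 bases before the annotated start site, 5′ to 3′ on the strand of the gene. Capitals mark the ETS core GGAA or its complement TTCC in the 5 receptor genes and in Vegfc, and the letters GGGCGG, a GC box, in Vegfa.
Flt1: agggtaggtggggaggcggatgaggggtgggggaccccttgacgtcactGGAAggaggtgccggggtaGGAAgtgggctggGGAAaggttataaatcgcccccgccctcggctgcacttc
Kdr: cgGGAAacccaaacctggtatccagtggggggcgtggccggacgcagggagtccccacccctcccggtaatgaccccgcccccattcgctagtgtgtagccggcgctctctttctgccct
Flt4: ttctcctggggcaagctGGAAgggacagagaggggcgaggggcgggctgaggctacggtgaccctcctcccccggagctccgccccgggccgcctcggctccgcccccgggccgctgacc
Tek: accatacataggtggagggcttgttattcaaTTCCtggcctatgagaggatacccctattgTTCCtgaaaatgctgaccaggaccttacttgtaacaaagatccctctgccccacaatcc
Tie1: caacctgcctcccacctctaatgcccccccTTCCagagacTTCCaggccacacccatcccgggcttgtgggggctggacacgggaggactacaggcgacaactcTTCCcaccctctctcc
Vegfc: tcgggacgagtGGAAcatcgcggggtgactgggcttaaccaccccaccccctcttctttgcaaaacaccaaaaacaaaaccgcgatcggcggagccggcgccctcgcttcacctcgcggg
Vegfa: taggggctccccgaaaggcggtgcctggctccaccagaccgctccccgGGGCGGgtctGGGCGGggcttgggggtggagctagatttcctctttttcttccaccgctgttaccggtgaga
The windows are chr5:147726012-147726131 (minus strand) for Flt1, chr5:75978456-75978575 (minus) for Kdr, chr11:49609559-49609678 (plus) for Flt4, chr4:94739169-94739288 (plus) for Tek, chr4:118489850-118489969 (minus) for Tie1, chr8:54077412-54077531 (plus) for Vegfc and chr17:46032378-46032497 (minus) for Vegfa. Angpt1 and Angpt2 are not shown. The table has a second Vegfa start site, at chr17:46025164-46025283 (minus), which holds no GGGCGG, has 52.5% G and C and is not shown. That start and the Vegfc start were not found in a GENCODE M21 transcript. Both strands were searched, in the windows shown, with 3 matches to GGAA for Flt1 and for Tie1, 2 for Tek and for Vegfa, and 1 each for Kdr, Flt4 and Vegfc. That is no mark of the group, since 73.4% of 32851 RefSeq promoter windows of this length hold at least 1 match and 17.17% hold at least 3. GGGCGG was found 3 times for Flt4, 2 times for Vegfa, once each for Flt1 and Kdr, and in 26.48% of all windows. The hypoxia-response core ACGTG was found in none of the 7 windows and in 9.409% of all, and TATAAA was found only for Flt1 and in 6.341% of all. The windows of Flt4 and Tek lie furthest apart in base composition, with 76.7% and 46.7% G and C. A match describes the letters only and says nothing on binding.

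In GENCODE M21, an annotation of the same build (GRCm38), the genes lie at chr5:147561604-147726011 (Flt1, ENSMUSG00000029648), chr5:75932827-75978458 (Kdr, ENSMUSG00000062960), chr11:49609263-49652739 (Flt4, ENSMUSG00000020357), chr4:94739289-94874976 (Tek, ENSMUSG00000006386) and chr4:118471191-118490061 (Tie1, ENSMUSG00000033191). The ligand genes lie at chr17:46016993-46032369 (Vegfa, ENSMUSG00000023951), chr8:54077606-54187096 (Vegfc, ENSMUSG00000031520), chr15:42424723-42676977 (Angpt1, ENSMUSG00000022309) and chr8:18690263-18741562 (Angpt2, ENSMUSG00000031465). Angpt1 overlaps Gm17473 and Angpt2 overlaps Mcph1, each on the other strand. Whether the counting used strand is not given in the sources used here, so reads of these pairs may be shared.

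All 5 receptors were highest in endothelial-like cells. Levels are UMIs of the gene per 1000000 UMIs of the class (CPM) in each pool of mice. They are given as a description without a test, since the classes were made from the same cells. The values are not per length, so levels are compared between cells for 1 gene and not between genes. Flt1 stood at 4968 ± 894 CPM (SD, n = 6 pools) in endothelial-like cells, with the pools between 4152 and 6354. Kdr stood at 598 ± 57.8 CPM, with the pools between 514 and 667. Tek, the angiopoietin receptor, stood at 572 ± 71.6 CPM, between 504 and 679. Every endothelial pool lay above every pool of any other class for these 3 genes. Tie1 stood at 273 ± 15.9 CPM and Flt4 at 72.2 ± 8.80 CPM (n = 6 pools each), again without overlap with another class. Endothelial-like cells held 98.96% of the Flt1 UMIs found in all named classes, 98.65% of Kdr, 98.90% of Flt4, 98.79% of Tek and 98.77% of Tie1. These shares depend on the sort, which filled the bins with endothelial cells.

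The next class in order was far lower and differed by receptor. For Flt1 it was the T or NK-like class, at a mean of 603 CPM over 5 pools that ranged from 122 to 1101, and the lowest was the astrocyte-like class, at 9.94 CPM. For Kdr the next was the neuron-like class with 77.5 CPM, for Flt4 the T or NK-like class with 11.4 CPM, for Tek the neutrophil-like class with 78.6 CPM, and for Tie1 the B cell-like class with 29.2 CPM. These means cover pools that ranged from 35.4 to 197 CPM for Kdr, 0 to 24.4 for Flt4, 0 to 202 for Tek and 0 to 55.9 for Tie1. The classes named held few molecules in all, with 12 UMIs of Flt4, 42 of Tek and 21 of Tie1. By library, Kdr in neuron-like cells was at 267 CPM in ATV-CD98hc medium 2 and 357 CPM in high 2, and at 2.32 and 3.07 CPM in ATV-TfR medium, so the second rank of Kdr rests on few libraries. Counted by cell, 99.89% of endothelial-like cells had a Flt1 UMI (99.50% after thinning every cell to 1500 UMIs, median depth 3274), against 1.783% of astrocyte-like cells (0.7853% thinned, median depth 4036). The share in T or NK-like cells was 21.07%, 20.29% thinned, and in pericyte-like cells it was higher, at 32.78%, 24.14% thinned. Kdr was seen in 77.66% and Tek in 79.68% of endothelial-like cells, which fell to 54.49% and 54.83% at the thinned depth. Among T or NK-like cells, Flt1 was at 402 CPM in ATV-CD98hc low 1 and 1315 and 1223 CPM in the ATV-CD98hc medium libraries.

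**Figure D1:**
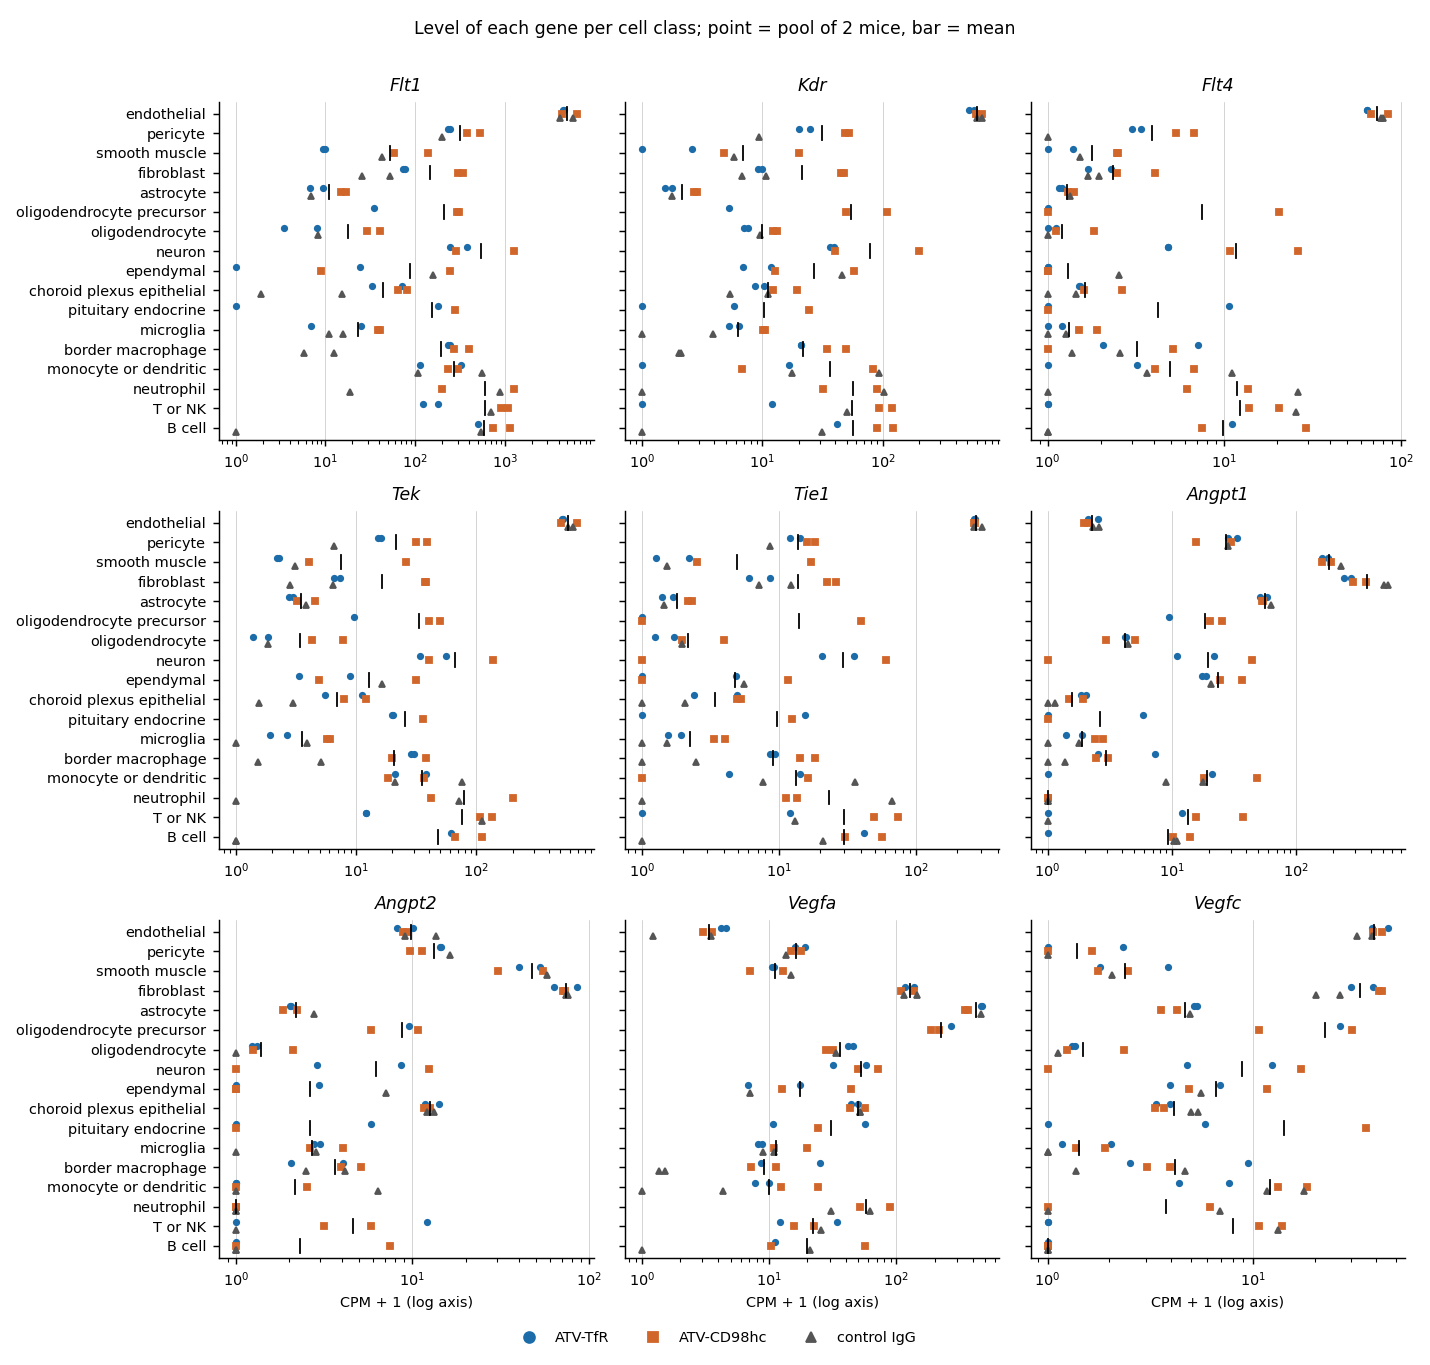
Level of each of the 9 genes by cell class. The x axis is CPM + 1 on a log axis, the y axis lists the classes, each point is 1 pool of mice and the bar is the mean over pools. The 5 receptors peak in endothelial-like cells, Vegfa in astrocyte-like cells, Angpt1 and Angpt2 in fibroblast-like cells when all bins are pooled (smooth muscle-like cells held more Angpt1 in the negative bins), and Vegfc in endothelial-like and fibroblast-like cells when pooled.

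The ligands had other sources. Vegfa was highest in astrocyte-like cells, at 420 ± 61.8 CPM (SD, n = 5 pools, 344 to 473). Oligodendrocyte precursor-like cells followed at 222 ± 42.0 CPM (n = 3 pools) and fibroblast-like cells at 126 ± 15.2 CPM. With all bins pooled, the endothelial-like class was the lowest, at a mean of 2.35 CPM with pools between 0.22 and 3.62. In single bins it was not always so: ATV-TfR negative and low libraries held 19.4 and 7.69 CPM and 29.6 and 31.2 CPM of Vegfa in endothelial-like cells, above the 4.02 and 3.85 CPM and 23.3 and 23.8 CPM of microglia-like cells. Of the Vegfa UMIs of named classes, 95.17% were astrocytic. A Vegfa UMI was found in 70.57% of astrocyte-like cells (42.47% thinned) and in 0.9136% of endothelial-like cells (0.4547% thinned).

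Angpt1, the TIE2 agonist, was highest per UMI in fibroblast-like cells, at 373 ± 131 CPM (SD, n = 6 pools, 244 to 554). Smooth muscle-like cells followed at 185 ± 28.8 CPM (161 to 232), then astrocyte-like cells at 55.1 ± 4.51 CPM (50.7 to 62.0) and pericyte-like cells at a mean of 26.2 CPM. The order by total RNA was different, since astrocyte-like cells were numerous and held 65.64% of the Angpt1 UMIs against 23.11% in fibroblast-like and 7.213% in smooth muscle-like cells. In the control IgG negative library alone, these shares were 73.51%, 0.70% and 20.64%, so the second source depended on the library. The order per UMI also turned with the bin: in the 5 negative libraries, smooth muscle-like cells held 154 to 229 CPM of Angpt1 and fibroblast-like cells 44.6 to 83.0 CPM. Smooth muscle-like cells could be measured in 1 library outside the negative bins.

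Angpt2 was also highest in fibroblast-like cells, at 72.7 ± 7.06 CPM, followed by smooth muscle-like cells at 46.3 ± 11.5 CPM. Pericyte-like, choroid plexus epithelial-like and endothelial-like cells overlapped, with means of 12.2, 11.6 and 8.87 CPM. By total UMIs, endothelial-like cells held 49.77% of Angpt2, fibroblast-like cells 20.50% and smooth muscle-like cells 9.308%. In the control IgG negative library the order was another, with 35.94% in smooth muscle-like, 28.47% in endothelial-like, 14.95% in astrocyte-like and 8.541% in fibroblast-like cells. With all bins pooled, Vegfc was shared by endothelial-like cells, at 38.1 ± 4.64 CPM (31.0 to 44.7), and fibroblast-like cells, at 32.2 ± 8.95 CPM (19.3 to 41.7), and their pools overlapped. Oligodendrocyte precursor-like cells came next for Vegfc, at a mean of 21.5 CPM. It was the only one of the 9 genes whose highest class overlapped the next in the pools. The share of all genes without such overlap is not given here, so this count is not read as a trait of the pathway. In the ATV negative libraries Vegfc was at 338 to 554 CPM in endothelial-like and 28.0 to 52.0 CPM in fibroblast-like cells, without overlap. Most endothelial-like cells of the ATV pools lay in medium and high bins.

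Over 85 sums of a class in a pool, the genes whose log2(CPM + 1) followed each member most closely were found. These are Pearson correlations over sums that share libraries, taken from 15773 genes and given as a description. For Flt1 they were Adgrl4 (r = 0.973), Abcb1a and Ptprb, of which Adgrl4 and Abcb1a are in the endothelial marker list. Tek followed Abcb1a (0.926), Spock2 and Adgrl4, Kdr followed Sema3c (0.907), Clic5 and Ushbp1, Tie1 followed Ushbp1 (0.915), Srarp and Sox18, and Flt4 followed AU021092 (0.848), Ushbp1 and Tek. For the ligands they were F3, Etv4 and Mapk4 for Vegfa (0.771 for F3), Crispld1, Fbln2 and Sp5 for Vegfc (0.711 for Crispld1), and Ccn2, Cdc42ep5 and Col18a1 for Angpt2 (0.861 for Ccn2). Angpt1 followed Slc7a2 (0.822), Fstl1 and its antisense neighbour Gm17473.

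Within the endothelium some members differed between the vessel types without overlap of pools, and others, such as Flt1, overlapped. Re-clustering the 84724 cells gave 41573 capillary-like, 15763 arterial-like, 4901 venous-like and 293 Plvap-high cells, and 22194 cells in sub-clusters led by red blood cell, astrocyte or pericyte genes that were left unnamed. Plvap forms the diaphragms of fenestrated capillaries. Kdr was 2404 ± 304 CPM in the Plvap-high cells (SD, n = 5 pools, 2077 to 2814), 686 ± 48.3 CPM in capillary-like, 565 ± 52.9 CPM in venous-like and 359 ± 45.3 CPM in arterial-like cells (291 to 428). The Plvap-high cells were above and the arterial-like cells below every pool of the other types. Flt4 had the same highest and lowest type, with means of 156 CPM in Plvap-high, 81.2 CPM in capillary-like, 62.3 CPM in venous-like and 53.5 CPM in arterial-like cells. Tie1 was highest in Plvap-high cells too, at 535 ± 73.4 CPM, with venous-like, arterial-like and capillary-like cells at 310, 268 and 266 CPM.

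Tek and Flt1 did not follow Kdr. Tek was lowest in Plvap-high cells, at a mean of 435 CPM with every pool (376 to 479) below those of the other 3 types, which stood at 593 (venous-like), 586 (arterial-like) and 574 CPM (capillary-like). Flt1 had means of 5385 CPM in arterial-like, 5169 in capillary-like, 4859 in Plvap-high and 3752 in venous-like cells, with overlapping pools.

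Vegfc was highest in the arteries, at 171 ± 31.7 CPM in arterial-like cells (136 to 221) against means of 35.0 CPM in venous-like, 16.4 CPM in Plvap-high and 6.31 CPM in capillary-like cells. It was highest in an arterial-like sub-cluster of 2151 cells led by Mgp, Fbln5 and Eln, genes of large-vessel matrix, at 460 CPM, where Kdr was at 185 CPM and Angpt1 at 25.1 CPM. Angpt2 was highest in Plvap-high cells, at 44.1 ± 16.6 CPM with pools that overlapped the arterial-like ones, against 12.8 and 12.4 CPM in arterial-like and capillary-like cells, and lowest in venous-like cells, at 1.35 CPM. A capillary-like sub-cluster of 440 cells led by Apln and Kit stood apart with 218 CPM of Angpt2, which is itself among its leading genes, with 816 CPM of Kdr and with 277 CPM of Tek.

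Of the 30 other genes of the pathway, only Esm1, Nrp1, Nrp2 and Dll4 are given by vessel type, chosen after their values were seen. How the rest differed between the types is not given here. Esm1, which VEGF-A induces in endothelial cells, was at 673 ± 260 CPM in Plvap-high cells and is one of their leading genes. The co-receptor Nrp1 was at 2264 ± 215 CPM there, against 348 CPM in capillary-like cells. Nrp2 was at 298 CPM in Plvap-high, 203 CPM in venous-like, 58.7 CPM in capillary-like and 10.0 CPM in arterial-like cells. Dll4, a Notch ligand of arteries and tip cells, was at 128 CPM in arterial-like and 126 CPM in Plvap-high cells, 77.6 CPM in capillary-like and 25.7 CPM in venous-like cells.

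**Figure D2:**
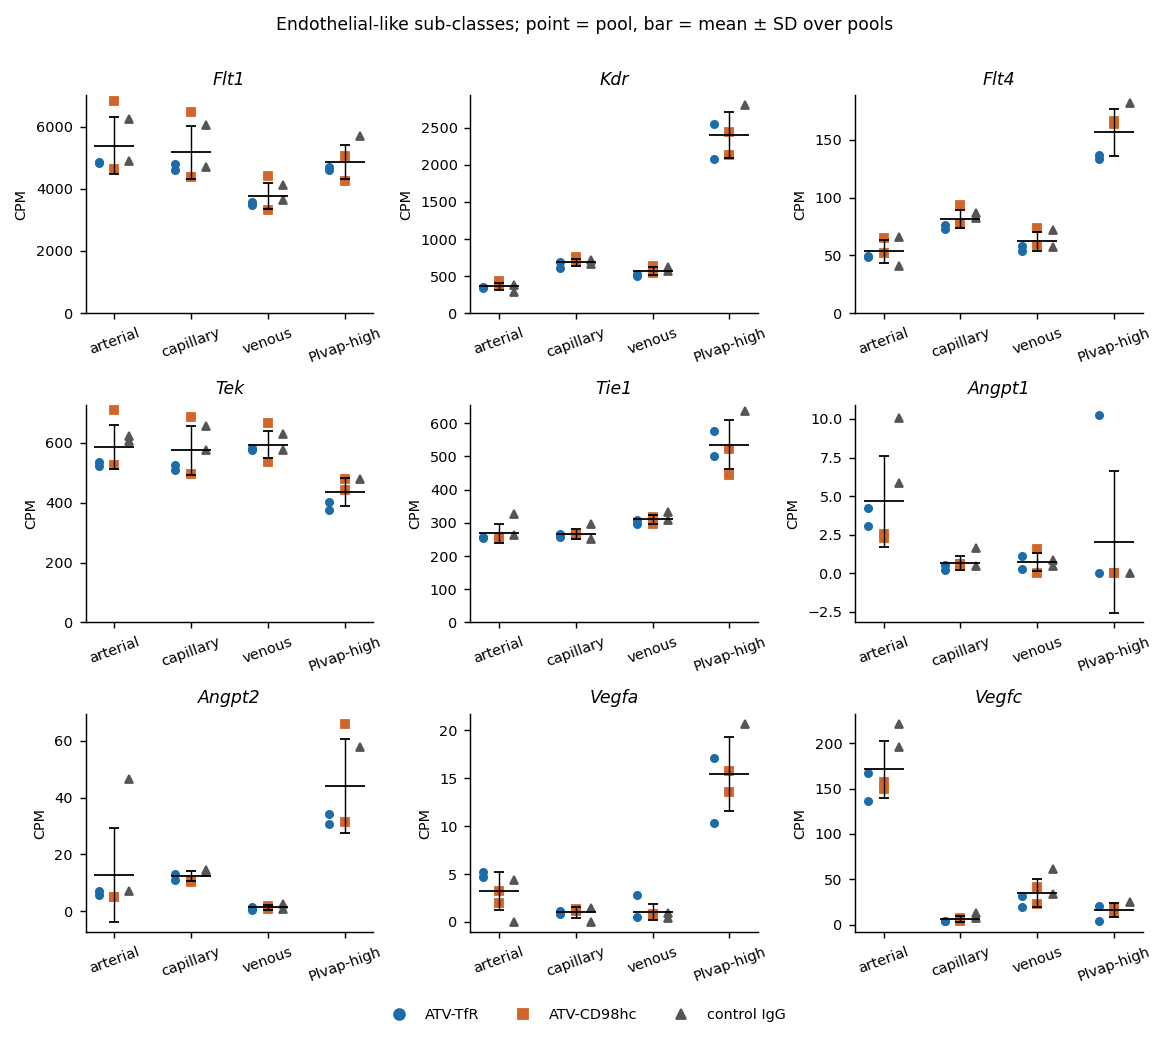
Level of each member in 4 endothelial types. The y axis is CPM, each point is 1 pool of mice, and the bar and whisker are the mean and SD over pools. Kdr, Flt4 and Tie1 are highest in Plvap-high cells, Tek is lowest there, and Vegfc is highest in arterial-like cells.

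Across the uptake bins, 3 of the 4 ligand RNAs were lower in the high than in the negative and low bins in the endothelial-like cells of both ATVs. Vegfc in ATV-TfR mice was at 338 and 396 CPM in the negative libraries, 352 and 329 in low, 111 and 122 in medium, and 26.1 and 20.4 in high. In ATV-CD98hc mice it was at 554 and 378 CPM in negative, 148 and 168 in low, 43.8 and 34.6 in medium, and 23.3 and 21.0 in high. No library of a high bin came near a negative or low one. With control IgG, Vegfc was at 54.3 CPM in the negative library, 30.7 and 24.1 in low, and 58.8 and 57.1 in medium.

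Angpt1 was sparse in these cells. It was at 31.1 and 46.1 CPM (16 and 12 UMIs) in the ATV-TfR negative libraries, 23.3 and 18.4 in low, 3.23 and 3.68 in medium, and 0.52 and 0.30 in high. In ATV-CD98hc it was at 20.2 and 16.7 CPM (5 and 3 UMIs), then 5.78 and 6.27, 0.94 and 1.01, and 0.36 and 0.49. Vegfa was at 19.4 and 7.69 CPM in ATV-TfR negative (10 and 2 UMIs), 29.6 and 31.2 in low, 14.5 and 17.6 in medium, and 1.45 and 0.95 in high. In ATV-CD98hc it was at 4.04 and 16.7 CPM in negative (1 and 3 UMIs), 15.1 and 18.6 in low, 2.17 and 2.55 in medium, and 0.36 in both high libraries. Vegfa was thus highest in the low bins by mean, with 1 ATV-CD98hc negative library inside their range, and every high library lay below every negative and low one for all 3 genes.

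**Figure D3:**
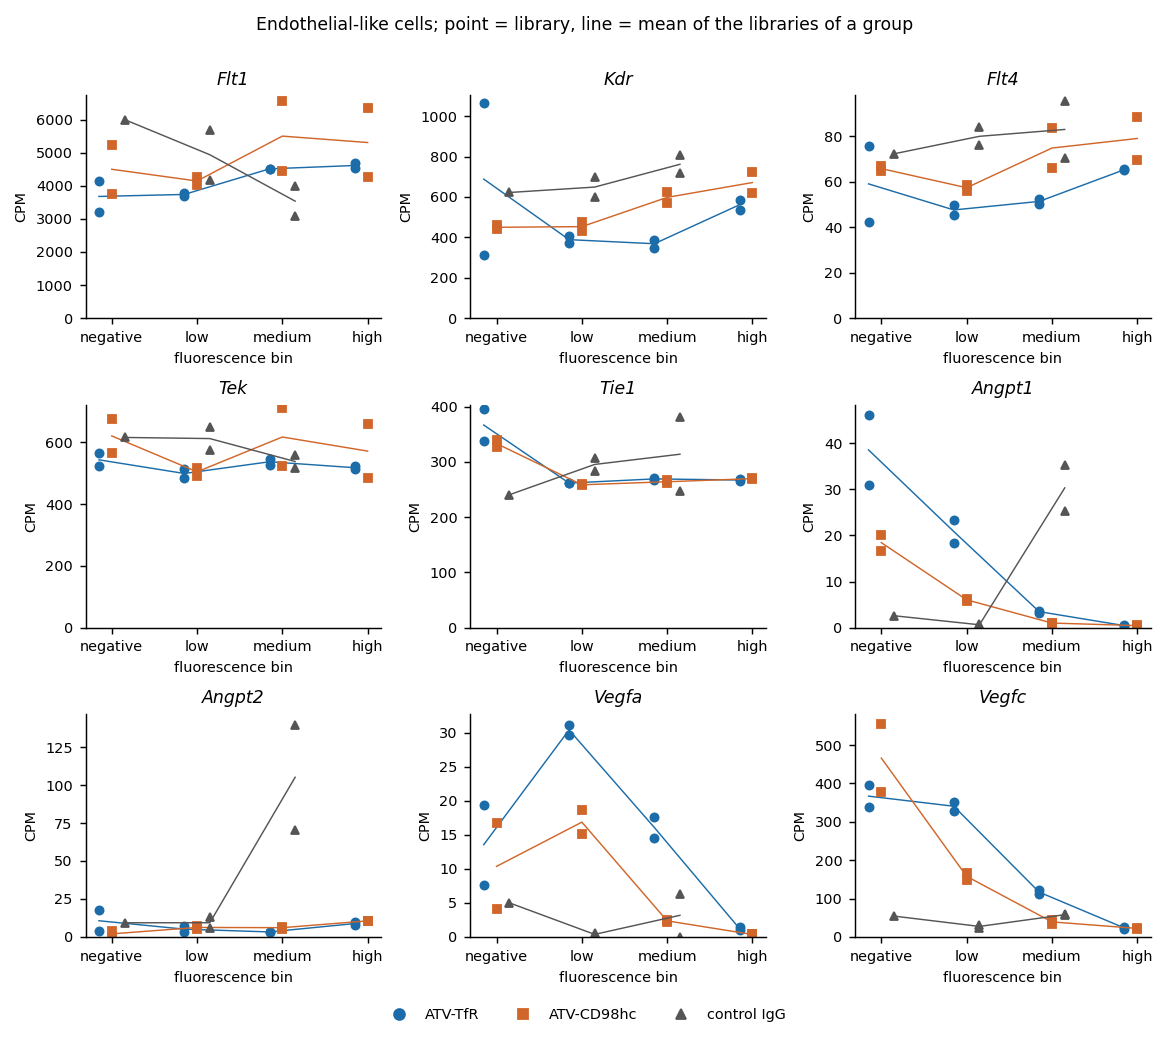
Level of each member in endothelial-like cells by uptake bin. The x axis is the bin, the y axis is CPM, points are libraries, colours are antibodies and lines join group means. Libraries with under 20 endothelial-like cells are not drawn. Vegfc, Angpt1 and Vegfa are low in the high bins of both ATVs.

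edgeR's quasi-likelihood test on UMIs summed per library called a gene at a Benjamini-Hochberg adjusted p under 0.05 over 15329 genes. High against negative in ATV-TfR, Vegfc fell by 3.83 on the log2 scale (SE 0.21, adjusted p = 1.7e-11). For ATV-CD98hc it fell by 4.20 (SE 0.22, adjusted p = 1.1e-11). Angpt1 fell by 6.34 (SE 0.46, adjusted p = 8.8e-10) and by 5.22 (SE 0.71, adjusted p = 2.4e-05), and Vegfa fell by 3.52 (SE 0.58, adjusted p = 1.5e-04) and by 4.47 (SE 1.03, adjusted p = 0.0072). The Vegfa calls rest on few molecules: without ATV-TfR replicate 1 the first was -2.71 (adjusted p = 0.39), and without ATV-CD98hc replicate 2 the second was -3.33 (adjusted p = 0.62). In ATV-CD98hc, Vegfa was also not called in named sub-clusters only (-3.95, adjusted p = 0.11) or with stricter doublet removal. Vegfc, Angpt1 and Vegfa were the only members called, all lower. With the pool as a block, Flt1 in both ATVs (0.47 and 0.43) and Kdr in ATV-CD98hc (0.78) were called too, all higher. Of all genes, 8.53% were called for ATV-TfR (6.24% lower) and 6.39% for ATV-CD98hc (4.49% lower). The median of the 9 members was -0.31 and 0.08, against 0.08 and 0.20 over all genes tested. The difference between the ATVs in this contrast was called for no gene by edgeR (0%), with 817 genes at an unadjusted p under 0.05 and 27 genes called by DESeq2. With the pool as a block, edgeR called 73.

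High against low, which shares its high libraries with the contrast above, gave the same 3 members lower, and Flt4 higher in ATV-CD98hc. Of all genes, 12.5% were called for ATV-TfR (9.35% lower) and 11.9% for ATV-CD98hc (10.4% lower). Vegfc fell by 3.75 (SE 0.21) and by 2.72 (SE 0.20, adjusted p = 4.3e-10), Angpt1 by 5.53 (SE 0.42) and by 3.69 (SE 0.38), and Vegfa by 4.53 (SE 0.36) and by 5.41 (SE 0.35). Medium against negative, which was not planned, the change of Vegfc differed between the ATV groups, in which antibody and genotype coincide. It was 1.84 higher (SE 0.28, adjusted p = 0.0037) in ATV-TfR than in ATV-CD98hc, where 0.411% of genes were called for that difference. The Vegfc-rich sub-cluster led by Mgp was 12.05% and 15.95% of endothelial-like cells in ATV-TfR medium. In ATV-CD98hc medium it was 0.621% and 1.16%, and its part in the difference was not tested. In control IgG, low against negative, Vegfc fell by 0.98, Angpt1 by 2.12 and Vegfa by 3.48, 3 of 9 members where 3.89% of genes were called. With 1 negative library, the spread in this test comes from the other groups of the fit and the lone library is assumed to vary like them. In control IgG medium against negative, where 0.274% of genes were called, Angpt1 rose by 3.35 and Angpt2 by 3.45, but the medium libraries held 27 and 40 endothelial-like cells.

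In the whole class, 1 receptor was called between high and low or negative bins without the block, Flt4 in ATV-CD98hc, and Flt1, Kdr and Flt4 gained calls, all higher, with the pool as a block. Kdr was at 372 and 405 CPM in ATV-TfR low and 586 and 538 in high, and at 432 and 475 CPM in ATV-CD98hc low and 725 and 618 in high, without overlap. High minus low was 0.66 (SE 0.29, adjusted p = 0.18) and 0.68 (SE 0.28, adjusted p = 0.16). With the pool as a block, since the bins of a pool come from the same mice, it was 0.66 (adjusted p = 0.0022) and 0.67 (adjusted p = 5.9e-04). Without 1 pool of the other ATV it was also called (adjusted p from 0.018 to 0.047), and so with stricter doublet removal (0.73, adjusted p = 0.0096, and 0.89, adjusted p = 9.7e-04). In all, Kdr high minus low was called in 5 of 14 alternatives in ATV-TfR and 5 of 15 in ATV-CD98hc. In named sub-clusters only it was 0.53 (adjusted p = 0.34) and 0.73 (adjusted p = 0.12). The ATV-TfR negative libraries split for Kdr, at 1066 and 311 CPM, and their shares of Plvap-high cells split likewise, at 37.6% and 5.77%. In ATV-CD98hc, Kdr high minus negative was 0.78 (adjusted p = 0.17), and 0.78 with the block (adjusted p = 0.0039). In ATV-TfR it was -0.19 (adjusted p = 0.78), and -0.16 with the block (adjusted p = 0.65).

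Flt4 was at 45.5 and 49.6 CPM in ATV-TfR low and 65.4 and 65.1 in high, a difference of 0.59 (SE 0.21, adjusted p = 0.081, and 0.018 with the block). In ATV-CD98hc it was at 56.0 and 58.5 CPM in low and 88.3 and 69.6 in high, and rose by 0.57 (SE 0.18, adjusted p = 0.033). With the block, the ATV-CD98hc difference was 0.55 (adjusted p = 2.9e-04). The call without the block was lost with size factors from DESeq2's method (0.49, adjusted p = 0.070) and without ATV-CD98hc replicate 1 (0.36, adjusted p = 0.36). It was also lost without ATV-TfR replicate 1 or 2 (adjusted p = 0.051 and 0.10) and in named sub-clusters only (0.55, adjusted p = 0.068). The ATV-TfR difference was called without any 1 pool of another antibody (adjusted p from 0.0078 to 0.046). In all, 8 of 14 alternatives called the ATV-TfR difference of Flt4, and in named sub-clusters only it was 0.43 (adjusted p = 0.31). Flt1 high minus low was 0.43 (adjusted p = 0.32) in ATV-TfR and 0.46 (adjusted p = 0.31) in ATV-CD98hc, and with the block 0.43 in both (adjusted p = 0.019 and 0.015). Flt1 high minus negative was 0.46 and 0.44, with adjusted p = 0.30 and 0.36, and 0.015 and 0.037 with the block. Tek and Tie1, the angiopoietin receptor pair, lay between -0.31 and 0.29 in these 4 contrasts and were called in none of them, with the block or without. Angpt2 was called in 1 contrast between ATV bins of the whole class without the block: it rose by 1.48 from medium to high in ATV-TfR (SE 0.35, adjusted p = 0.0058), where 7.81% of genes were called. In ATV-CD98hc high minus low, it was 0.85 (adjusted p = 0.11), and 0.84 with the block (adjusted p = 0.0026).

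The make-up of the class moved with the bins. The Mgp-led sub-cluster, the richest in Vegfc and Angpt1, made up 38.5% and 65.4% of endothelial-like cells in the ATV-TfR negative libraries, 54.6% and 54.0% in low, 12.05% and 15.95% in medium, and 0.458% and 0.427% in high. In ATV-CD98hc its shares were 45.6% and 37.0%, 15.9% and 20.5%, 0.621% and 1.16%, and 0.0725% and 0.0684%. Capillary-like cells were 3.42% and 5.77% in ATV-TfR negative and 46.4% and 49.5% in high. Cells led by astrocyte or pericyte genes were 15.9% and 22.3% in ATV-TfR low and 28.9% and 61.15% in ATV-CD98hc low, against 2.79% and 2.71%, and 1.03% and 2.345%, in high. The summed level of 9 astrocyte markers in endothelial-like cells was, like Vegfa, highest by mean in the low bins, at 614 and 1088 CPM in ATV-TfR low, 74.7 and 73.1 CPM in high, 450 and 736 CPM in ATV-CD98hc low, and 58.8 and 54.8 CPM in high. Summed over 8 fibroblast markers, the class whose Angpt1 is highest, the negative libraries held 13.6 and 61.5 CPM (ATV-TfR) and 12.1 and 11.1 CPM (ATV-CD98hc), and the high ones between 4.79 and 7.32 CPM. The 7 smooth muscle markers summed to 146 and 219 CPM in ATV-TfR negative and 46.3 and 40.0 CPM in high. The part of these other RNAs in the ligand differences was not tested.

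Within arterial-like cells, Vegfc was lower and Kdr higher in the high than in the negative bins, and the make-up of these cells differed between the bins too. The Mgp-led sub-cluster was 45 of 58 and 34 of 39 arterial-like cells in ATV-TfR negative and 64 of 2257 and 56 of 2242 in high, and 31 of 46 and 20 of 24 in ATV-CD98hc negative and 6 of 1382 and 7 of 1809 in high. High against negative, Vegfc fell by 2.61 (SE 0.23) in ATV-TfR and by 2.79 (SE 0.24) in ATV-CD98hc, and Kdr rose by 1.73 (SE 0.24, adjusted p = 7.7e-06) and by 1.81 (SE 0.26, adjusted p = 1.7e-05), where edgeR called 6.48% and 3.86% of 13072 genes. High against low, where 8.2% and 8.73% were called, Kdr rose by 1.58 (SE 0.21) and by 1.24 (SE 0.19), and Vegfc fell by 2.18 and by 2.12. Angpt1 also fell there from negative to high, by 7.20 and by 4.60. Angpt2 rose by 2.16 (SE 0.56, adjusted p = 0.0091) from low to high in ATV-CD98hc, and in ATV-TfR the difference was 0.78 (adjusted p = 0.66). Tek and Tie1 were not called here either.

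**Figure D4:**
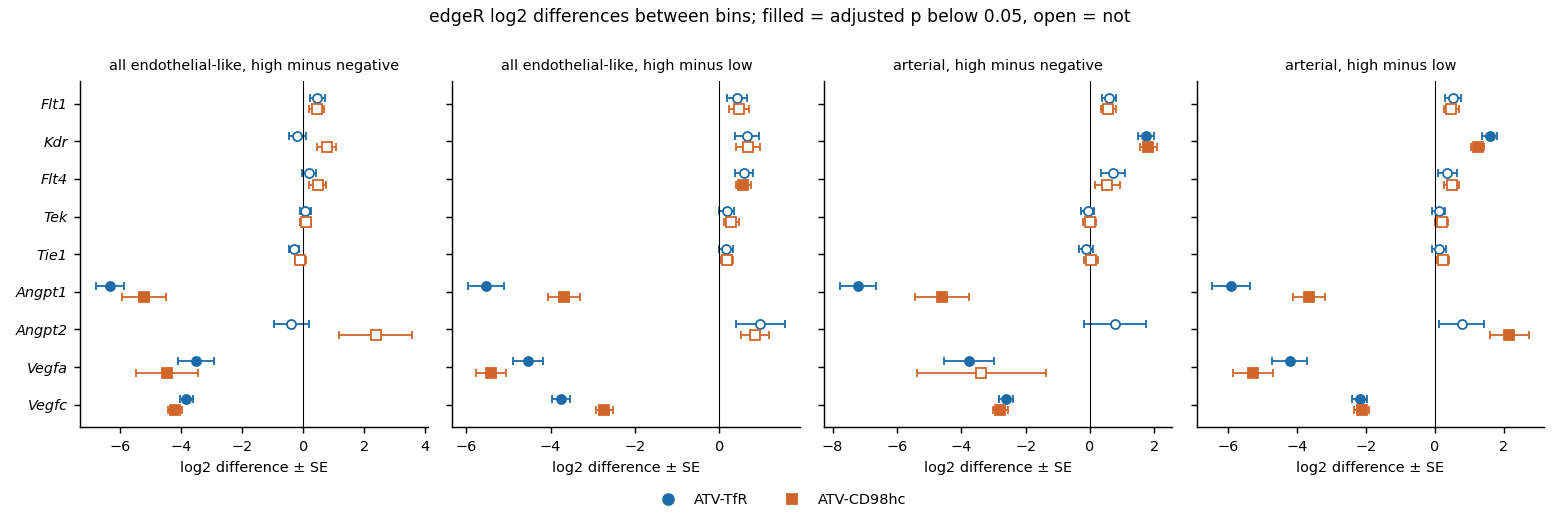
Difference of each member between bins, for all endothelial-like cells and for arterial-like cells. The x axis is the log2 difference from edgeR with its SE, colours are antibodies, and filled points have an adjusted p under 0.05. Values with an SE of at least 3 are not drawn. Vegfc lies far below 0 in every panel, and Kdr lies above 0 with filled points in arterial-like cells.

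In the Mgp-led sub-cluster alone, both differences were seen at a smaller size for Vegfc. Kdr was at 70.7 and 70.6 CPM in the ATV-TfR negative libraries, 128 and 116 in low, 240 and 209 in medium, and 287 and 200 in high. Vegfc there was at 794 and 671 CPM, 486 and 475, 367 and 378, and 478 and 355. Medium and negative libraries did not overlap in either antibody. With ATV-CD98hc, Kdr was at 62.0 and 117 CPM in negative and 218 and 228 in medium, and Vegfc at 860 and 626 CPM and 395 and 333. High against negative in ATV-TfR, Kdr rose by 1.80 (SE 0.31, adjusted p = 8.8e-05), Flt1 rose by 0.76 (adjusted p = 0.0035) and Vegfc fell by 0.81 (SE 0.20, adjusted p = 0.0081), where 4.7% of 8208 genes were called. Medium against negative, Kdr rose by 1.66 (4.64% of genes called) in ATV-TfR and by 1.44 (adjusted p = 0.037, 0.707% called) in ATV-CD98hc, and Vegfc fell by 0.98 and by 1.03. The control IgG negative library held 167 CPM of Kdr and 518 CPM of Vegfc in this sub-cluster. Within capillary-like cells, high against low could be fitted for ATV-CD98hc alone, and no contrast of an ATV with its negative bin. It called 1.69% of 14946 genes, and Vegfc was at -0.07 (adjusted p = 0.99), Kdr at 0.47 (adjusted p = 0.35), Flt4 at 0.57 (adjusted p = 0.44) and Vegfa fell by 4.72 (adjusted p = 0.0036).

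Another 30 genes of the pathway were read in the 4 endothelial contrasts of high bins, and 27 of them passed the filter on low counts. Of the 7 genes that VEGF-A is known to induce, 2 fell in ATV-TfR and 1 in ATV-CD98hc from negative to high, and 3 fell in each from low to high, with none higher, where 6.24%, 4.49%, 9.35% and 10.4% of all genes tested were called lower. Nr4a1, an immediate-early nuclear receptor, fell in all 4. It was at 87.4 and 111 CPM in ATV-TfR negative, 82.5 and 89.2 in low, 22.3 and 24.7 in medium, and 14.5 and 9.60 in high, and at 72.8 and 33.3 CPM in ATV-CD98hc negative and 8.29 and 7.52 in high. High minus negative, Nr4a1 fell by 2.87 and by 2.61. Egr3, another immediate-early factor, fell by 3.07 (ATV-TfR) and 2.03 (ATV-CD98hc) from low to high. Esm1 was at 305 and 0 CPM in the ATV-TfR negative libraries, the first of which held the most Plvap-high cells, at 44.4 and 58.1 CPM in low and at 0 in both high libraries, and Esm1 fell by 5.82 from low to high in ATV-CD98hc. Plvap-high cells were 5.08% and 7.92% of endothelial-like cells in ATV-TfR low and 0 in high, and 2.24% and 2.85% in ATV-CD98hc low and 0.0846% and 0.0391% in high, and their part in the Esm1 values was not tested.

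Of 6 ligands and co-receptors tested, 1 fell in each of 2 contrasts: Nrp2 fell by 1.55 from negative to high in ATV-TfR and the placental growth factor gene Pgf fell by 3.25 from low to high in ATV-CD98hc, where 8.53% and 11.9% of all genes were called. Plvap-high cells, where Nrp2 is highest, went from 37.6% and 5.77% in ATV-TfR negative to 0 in high, and their part in the Nrp2 value was not tested. Of 6 oxygen-sensing genes, Egln1, an oxygen sensor that marks HIF for degradation, was at 96.3 and 77.9 CPM in ATV-TfR low and 163 and 162 CPM in high, and rose by 1.01 (adjusted p = 2.3e-04, with 3.15% of genes called higher). Egln3, a related enzyme, was called lower in ATV-TfR from 2 and 0 UMIs in the negative libraries. In ATV-CD98hc, Egln1 rose by 0.52 from low to high (adjusted p = 0.032, 1.52% called higher) and by 0.88 from negative to high (adjusted p = 0.015, 1.9% called higher). Of the 8 genes of signal transduction that could be tested, none was called by edgeR in any of the 4 contrasts.

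Over whole pools, with bins summed, no difference between antibodies was called in endothelial-like cells (0% of 16159 genes in each of 3 comparisons by edgeR). There, 1301, 759 and 363 genes had an unadjusted p under 0.05, and DESeq2 called 188, 89 and 6, for ATV-TfR against control IgG, ATV-CD98hc against control IgG and the ATVs against each other. The 9 members lay between -0.46 and 1.02. Within the low bin alone members did separate, where 19.7% and 17.7% of 12384 genes were called against control IgG and 4.2% between the ATVs. Vegfc was at 352 and 329 CPM in ATV-TfR, 148 and 168 in ATV-CD98hc, and 30.7 and 24.1 in control IgG, and was higher by 3.61 in ATV-TfR and by 2.51 in ATV-CD98hc than in control IgG. Kdr was at 598 and 700 CPM in the control IgG low libraries, above all 4 ATV low libraries, with differences of -0.79 (adjusted p = 4.0e-04) and -0.56 (adjusted p = 0.0081). For Flt4 the differences were -0.80 (adjusted p = 0.0037) and -0.53 (adjusted p = 0.017). Vegfa was higher by 5.98 and 5.15 and Angpt1 by 5.10 and 3.31 than in control IgG, whose low libraries held 1 and 6 UMIs of Vegfa and 3 and 6 of Angpt1, so 5 of 9 members were called in each comparison. Between the ATVs, Vegfc was higher by 1.11 and Angpt1 by 1.80 in ATV-TfR, and the other 7 members were not called. In control IgG low, venous-like cells were 49.3% and 19.0% of the endothelial-like cells, and cells led by astrocyte or pericyte genes were 1.33% and 0.633%. The Mgp-led sub-cluster, where Vegfc is highest, was 54.6% and 54.0% of them in ATV-TfR low, 15.9% and 20.5% in ATV-CD98hc low and 0.921% and 0.316% in control IgG low, and its part in these differences was not tested.

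In astrocyte-like cells, the main source of Vegfa, its level differed between bins in ATV-CD98hc and between the ATV groups, in which antibody and genotype coincide. In ATV-CD98hc it was at 435 and 382 CPM in the negative libraries, 350 and 348 in low, 282 and 278 in medium, and 223 and 229 in high. In ATV-TfR it was at 430 and 421 CPM, 464 and 455, 492 and 485, and 438 and 434. The control IgG negative library held 457 CPM. The bins of ATV-CD98hc did not overlap and descended in order, while all ATV-TfR libraries lay between 421 and 492 CPM.

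Over 15915 genes, Vegfa fell by 0.51 (SE 0.08, adjusted p = 1.9e-04) from negative to medium in ATV-CD98hc and by 0.91 (SE 0.10, adjusted p = 1.8e-06) from negative to high, where edgeR called 14.5% and 9.05% of genes. In ATV-TfR the same differences were 0.25 (SE 0.08, adjusted p = 0.089, and 0.032 with the pool as a block) and 0.12 (adjusted p = 0.36), where 4.26% and 14.6% were called. Low minus negative, the contrast planned for this class, was 0.14 (adjusted p = 0.98) in ATV-TfR and -0.18 (adjusted p = 0.31) in ATV-CD98hc, where 1.33% and 2.46% were called. The medium contrasts were added after the levels by bin had been seen, and the high contrasts of this class were not planned either. The difference between the ATVs itself was 0.76 for medium minus negative and 1.03 for high minus negative, with 5.4% and 2.76% of genes called, and 0.71 for high minus low, with 2.1% called. The first was lost when either ATV-TfR pool was left out (0.73, adjusted p = 0.073, without replicate 1 and 0.77, adjusted p = 0.076, without replicate 2).

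Summed over bins, Vegfa was higher by 0.44 (SE 0.05, adjusted p = 0.0015) in the astrocyte-like cells of ATV-TfR than of ATV-CD98hc mice, where 8.95% of 18164 genes were called. ATV-CD98hc minus control IgG was -0.36 (adjusted p = 0.076, 0.0716% of genes called), with 1 pool of control IgG. ATV-TfR minus control IgG called none of the members by edgeR (5.45% of genes called).

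Angpt1 in astrocyte-like cells was higher in the high than in the negative bins of both ATVs. It was at 51.8 and 46.0 CPM in ATV-TfR negative, 52.2 and 48.8 in low, 60.6 and 52.8 in medium and 92.9 and 72.1 in high, and at 44.0 and 31.1 CPM in ATV-CD98hc negative, 53.1 and 52.2 in low, 77.3 and 76.0 in medium and 65.2 and 74.7 in high. In the planned contrast, low against negative, it rose by 0.50 (SE 0.12, adjusted p = 0.025) in ATV-CD98hc, a call lost with stricter doublet removal (adjusted p = 0.056), without ATV-TfR replicate 1 or 2 (0.069 and 0.073) and without ATV-CD98hc replicate 2 (0.33, adjusted p = 0.15). In ATV-TfR, low minus negative was 0.08 (adjusted p = 1.0) and medium minus negative 0.27 (adjusted p = 0.29). From negative to high it rose by 0.86 and by 0.80, and from negative to medium in ATV-CD98hc by 1.04 (SE 0.13). The high astrocyte libraries were small, with 476 and 328 cells in ATV-TfR and 149 and 142 in ATV-CD98hc. Flt1 was called in the planned contrast too, from 1.11 and 1.66 CPM in ATV-CD98hc negative to 4.33 and 4.35 CPM in low (1.79, adjusted p = 0.0073), and not without ATV-CD98hc replicate 1 (1.41, adjusted p = 0.28). From negative to medium, all 5 receptors were called higher in ATV-CD98hc, by 3.14 to 7.84, and Flt1 alone of them in ATV-TfR, by 2.08, where 14.5% and 4.26% of genes were called. All 5 receptors were called higher from negative to high in both ATVs, where 8.6% and 5.31% of genes were called higher. Flt1 was at 179 and 192 CPM in ATV-TfR high and 244 and 274 CPM in ATV-CD98hc high. The summed level of the 12 endothelial markers moved with it, from 115 to 150 CPM in the negative libraries of the ATVs (165 CPM in control IgG negative) to 1004 and 1143 CPM in ATV-TfR high and 1172 and 1605 CPM in ATV-CD98hc high. Its part in the receptor values was not tested. A fit on cells with at most 1 endothelial marker UMI is given below for Angpt1 and Tek. That choice of cells takes out endothelial RNA, so the fit cannot decide this.

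**Figure D5:**
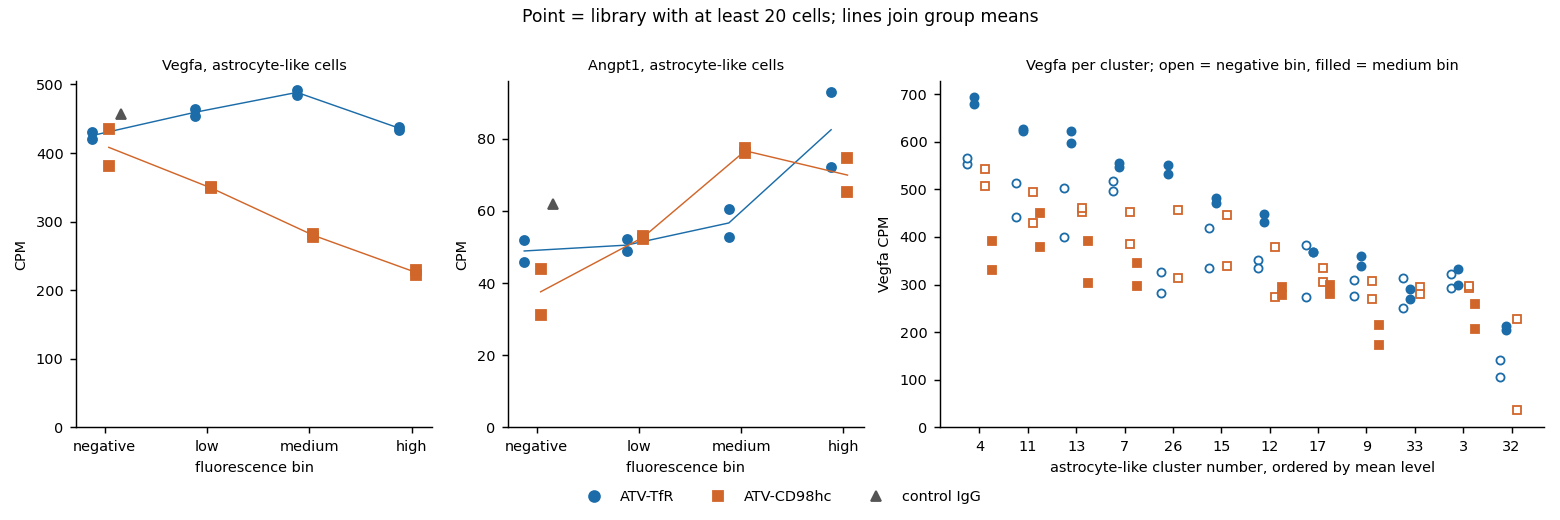
Vegfa and Angpt1 in astrocyte-like cells by uptake bin, and Vegfa within single astrocyte clusters. The y axis is CPM, points are libraries, and in the panel of clusters open points are negative and filled points medium libraries. Vegfa descends over the bins of ATV-CD98hc and stays between 421 and 492 CPM in ATV-TfR.

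Astrocyte clusters differed in Vegfa, from 573 CPM in cluster 4 (led by Car8 and Rpe65) to 146 CPM in cluster 32, and their shares moved with the bins. Cluster 3, led by Itih3, Igsf1 and Agt, held 279 CPM of Vegfa. It made up 14.9% and 8.9% of the astrocyte-like cells in ATV-CD98hc negative, 39.4% and 31.9% in medium and 65.1% and 56.3% in high, against 5.6% and 7.8% in ATV-TfR negative and 20.4% in both high libraries. The clusters were cut from the same libraries, so counts of clusters with the same sign are not independent. Within single clusters, Vegfa medium minus negative was above 0 in 12 of 12 clusters in ATV-TfR and was called in 2, cluster 13 (0.45, with 1.37% of genes called) and cluster 26 (0.89, with 2.31%). High minus negative in ATV-TfR was above 0 in 7 of 8 clusters and called in cluster 11 (0.66, adjusted p = 8.2e-04, with 0.784% of genes called). In ATV-CD98hc medium minus negative was below 0 in 8 of 8 clusters and called in none, with a lowest adjusted p of 0.0996. The difference between the ATVs was above 0 in 8 of 8 and called in cluster 4 (0.85, adjusted p = 0.023, with 0.0511% of genes called). Angpt1 also differed between astrocyte clusters, from 119 CPM in cluster 33 (5 pools) to 8.21 CPM in cluster 26. Cluster 57, at 132 CPM, was measured in 1 pool of 80 cells, and cluster 3 held 77.6 CPM. Within clusters, low minus negative of Angpt1, the planned contrast, was above 0 in 6 of 11 in ATV-CD98hc, with a median of 0.04. In ATV-TfR it was above 0 in 7 of 11, and it was called in no cluster of either ATV. High minus negative of Angpt1 in ATV-TfR was above 0 in 7 of 8 and called in none, with a lowest adjusted p of 0.076. Medium minus negative in ATV-CD98hc was above 0 in 7 of 8 with a median of 0.52, and was called in cluster 13 (1.87, adjusted p = 0.0014, with 0.75% of genes called).

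The other ligand sources also changed with the bin, and in fibroblast-like and choroid plexus cells the cluster make-up changed with them. Angpt1 in fibroblast-like cells was at 57.8 and 70.1 CPM in ATV-TfR negative and 475 and 326 in low, at 70.2 and 83.0 CPM in ATV-CD98hc negative, 66.2 and 89.0 in low and 626 and 469 in high, and at 44.6 CPM in control IgG negative and 454 and 596 in low. Low against negative, it rose by 2.61 (SE 0.27) in ATV-TfR and by 3.55 in control IgG, where 12.3% and 10.9% of 11356 genes were called. The control IgG negative arm is 1 library of 64 fibroblast-like cells, which is assumed to vary like the other groups. The class had 2 clusters, and Angpt1 was at 524 ± 75.3 CPM in the cluster led by Coch and Igfbp4 and at 49.08 ± 13.03 CPM in the cluster led by Slc6a13 and Spp1. The first made up 1.6% to 7.1% of the class in negative libraries, 93.1% and 91.1% in ATV-TfR low, 13.51% and 13.04% in ATV-CD98hc low and 86.1% and 89.4% in ATV-CD98hc high. Within the clusters, the ATV-TfR contrast could not be fitted. In the Slc6a13-led cluster, ATV-CD98hc low minus negative was 0.28 (adjusted p = 0.97), and in the Coch-led cluster high minus medium was 0.14 (adjusted p = 1.0). Over the whole class, the change from negative to low differed between the ATVs by 2.56, in a contrast that called 2.2% of genes. Vegfa in choroid plexus epithelial-like cells was at 35.4 and 39.5 CPM in ATV-TfR low and 74.7 and 74.2 in high, and at 27.9 and 38.4 CPM in ATV-CD98hc low and 85.2 and 74.6 in high. High against low, it rose by 0.82 (SE 0.20) and by 1.05, in contrasts that called 46.6% and 49.4% of genes, and its 2 clusters held 82.0 ± 8.22 and 33.4 ± 2.79 CPM. Within the second, high minus low in ATV-CD98hc was -0.59 (adjusted p = 0.56), and for ATV-TfR or within the first it could not be fitted.

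Vegfa in microglia-like cells was at 4.02 and 3.85 CPM in ATV-TfR negative and 23.3 and 23.8 in low, and rose by 2.62 (SE 0.41, adjusted p = 1.6e-04, 2.85% of genes called). In ATV-CD98hc it was at 5.77 and 1.47 CPM and 14.0 and 23.3 CPM, and rose by 2.03 (adjusted p = 0.043, 0.706% called). The values did not go on upward: ATV-TfR medium was at 39.9 and 4.62 CPM (5 and 1 UMIs), and ATV-CD98hc was at 1.13 and 5.11 CPM in medium (1 and 2 UMIs) and at 0 in both high libraries. The 9 astrocyte markers summed to 411 and 510 CPM in ATV-TfR negative microglia and 934 and 866 CPM in low, and to 516 and 540 CPM and 650 and 967 CPM in ATV-CD98hc. In oligodendrocyte-like cells Vegfa was at 35.1 and 32.4 CPM in ATV-TfR negative and 73.9 and 70.9 in low (a rise of 1.05, adjusted p = 0.017, 2.04% of genes called), and at 25.9 and 22.6 CPM and 40.8 and 38.2 CPM in ATV-CD98hc (0.62, adjusted p = 0.37, 4.83% called). Astrocyte markers there went from 309 and 357 CPM to 706 and 754 CPM in ATV-TfR and from 350 and 388 CPM to 414 and 937 CPM in ATV-CD98hc. The part of astrocyte RNA in these Vegfa values was not tested. From negative to low, 10 member values were called in either ATV outside endothelial-like and astrocyte-like cells: the 3 Vegfa values and the fibroblast Angpt1 value given here, and 6 of receptors. Flt1 rose by 2.62 in ATV-TfR microglia-like cells (1 low library at 44.9 CPM, the other at 1.83 CPM), by 3.25 and 7.92 in oligodendrocyte-like cells of ATV-TfR and ATV-CD98hc (from 1 and 2 UMIs in the ATV-CD98hc negative libraries, and in ATV-TfR with 1 low library at 21.97 CPM and the other at 2.22 CPM), and by 1.34 in ATV-CD98hc pericyte-like cells. Tek rose by 4.41 in ATV-CD98hc oligodendrocyte-like cells and Kdr by 2.86 in pericyte-like cells, where 2.03% of genes were called. The pericyte value rests on 1 low library, at 147 CPM (17 UMIs), with the other at 14.4 CPM (3 UMIs) and the negative libraries at 10.2 and 6.62 CPM. The 12 endothelial markers moved with them in ATV-CD98hc, from 76.4 and 93.5 CPM to 483 and 793 CPM in oligodendrocyte-like cells and from 525 and 758 CPM to 1243 and 1385 CPM in pericyte-like cells. In ATV-TfR they went from 93.3 and 91.7 CPM to 108 and 157 CPM in oligodendrocyte-like cells and from 81.3 and 70.3 CPM to 237 and 72.4 CPM in microglia-like cells, highest in the library with the most Flt1 in each class. Their part was not tested. Kdr in oligodendrocyte-like cells differed between the ATVs in medium minus negative (-3.19, 1.13% of genes called), with 2 and 4 Kdr UMIs in the ATV-TfR medium libraries. Flt1 in the same cells was at 12.8 and 39.9 CPM in ATV-TfR medium and 269 and 186 CPM in ATV-CD98hc medium, and the 12 endothelial markers summed to 162 and 365 CPM and to 928 and 1167 CPM. Their part in the Kdr value was not tested.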

How the data were processed

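The authors deposited UMI counts, whole numbers per gene and barcode without normalization, with lists of genes, barcodes and libraries beside it (unit: other); per the submitters' processing notes the tools were Cell Ranger 7.1.0 and Seurat 4 and 5 on mm10 (GRCm38). The members, gene lists and markers were chosen with earlier results of these data known. Barcodes with at least 500 genes, 800 UMIs and at most 10% mitochondrial UMIs were kept (249715 of 265025), and 30983 scored as doublets were removed, at 0.8% for every 1000 barcodes of a library. Libraries shared at most 88 barcodes. Clusters (Leiden, resolution 2, from 2000 variable genes without the pathway, 50 components and 15 neighbours) were named from marker lists. The 17 unnamed of 62 clusters (10.49% of cells) were left out. UMIs were summed per class and library with at least 20 cells and tested with edgeR 4.0.16 (TMM, filterByExpr, quasi-likelihood, all libraries of the class in 1 fit), with DESeq2 1.42.0, limma 3.58.1, R 4.3.3 and Python 3.11.15. The tests were tried on simulated counts. Pools are separate mice, but 2 per group limit every p-value, and shallow sums limit sparse genes. Bins of a pool come from the same mice, per the labels' protocols, and same-pool deviations correlated at 0.0251 to 0.468 (ATV-TfR) and 0.14 to 0.967 (ATV-CD98hc). The text names the 9 members, the other pathway genes called in an endothelial-like contrast (at most the 10 largest) and the 3 genes most like each member. Genes that lead clusters, and pathway genes named for their level by vessel type, were chosen after their values were seen, as were the medium contrasts of astrocytes, the contrasts within clusters and the fits on named sub-clusters only. The high contrasts of astrocyte-like cells and the medium contrasts of endothelial-like cells were not planned either. Alternatives were another size factor, DESeq2, no filter, stricter doublets, another resolution, a higher cell minimum, the block and each pool left out. Astrocyte-like cells with at most 1 endothelial marker UMI were also fitted alone.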

Additional observations from a re-analysis of the deposited data

Results flagged for a closer look

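In each case below, edgeR's test of the difference itself found that a bin contrast was not the same in ATV-TfR and ATV-CD98hc mice (ATV-TfR minus ATV-CD98hc, log2 scale). In astrocyte-like cells, medium minus negative differed for Vegfa by 0.76 and for Angpt1 by -0.77, and for 3 receptors that are endothelial genes: Flt1 by -3.87, Kdr by -5.00 and Tek by -2.83. The endothelial markers in those cells summed to 188 and 184 CPM in ATV-TfR medium and 516 and 494 CPM in ATV-CD98hc medium. Without ATV-TfR replicate 1 or 2 these calls were lost for Vegfa (0.73 and 0.77), Angpt1 (-0.83 and -0.75), Kdr (-5.71 and -4.43) and Tek (-2.96 and -2.72), and without replicate 2 for Flt1 (-3.26). Angpt1 was also lost without ATV-CD98hc replicate 2 (-0.59). In cells with at most 1 endothelial marker UMI, Angpt1 was -0.50 (adjusted p = 0.11) and Tek -1.73 (adjusted p = 0.27). That choice of cells itself takes out endothelial RNA, so a smaller value of an endothelial receptor there decides nothing. Flt1, Kdr and Vegfa in those cells are not given here. Within single astrocyte clusters, the Angpt1 difference was below 0 in 5 of 8, above 0 in 3 and called in none (lowest adjusted p = 0.58). High minus negative differed for Vegfa by 1.03, and high minus low for Vegfa by 0.71 and for Flt1 by 2.18. Within astrocyte cluster 4, medium minus negative of Vegfa differed by 0.85. In endothelial-like cells, medium minus negative of Vegfc differed by 1.84. The Vegfc-rich sub-cluster led by Mgp was 12.05% and 15.95% of them in ATV-TfR medium and 0.621% and 1.16% in ATV-CD98hc medium. Its part was not tested. In fibroblast-like cells, low minus negative of Angpt1 differed by 2.56. The clusters of that class held 524 and 49.1 CPM of Angpt1, and their shares in the low bins, given above, differed between the ATVs. The part of these shares was not tested. In oligodendrocyte-like cells medium minus negative of Kdr differed by -3.19, from 2 and 4 UMIs in ATV-TfR medium. Flt1 there was at 12.8 and 39.9 CPM in ATV-TfR medium and 269 and 186 CPM in ATV-CD98hc medium.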

How the results depend on the processing

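Of 731 values of members and levels under an alternative, 654 stayed the same, 32 were weaker, 21 stronger, 24 moved and 0 reversed. That 0 does not cover the 89 uncalled member values, of which 42 changed sign and 26 were called somewhere. Of 174 gene counts, 136 stayed within 1.5 times. The cause was not tested for any change below. High against negative in endothelial-like cells of ATV-CD98hc called 979 genes, 1612 with DESeq2 and 644 with stricter doublet removal, and high against low called 1823, and 253 in capillary-like cells. The difference of the ATVs called 0, 27 with DESeq2 and 89 without the count filter. Astrocyte low against negative called 211 in ATV-TfR, 364 without the filter and 500 at resolution 1, and 392 in ATV-CD98hc, 841 without the filter. The 3 antibody comparisons over pools called 0, 188, 89 and 6 with DESeq2, and 2438, 2187 and 520 in the low bin only. Member values called from negative to low in other classes, named in the report beside 0.706% to 12.3% of genes called, numbered 10, and 6 with at least 50 cells or with stricter doublets. Of the members, 5 had a highest endothelial type without overlap, and 3 in high bins only. The share of all genes that do so is not given here, so these counts are not read as a trait of the members. Vegfa in ATV-CD98hc high minus negative was -3.59 (adjusted p = 0.16) with stricter doublets and -3.95 (adjusted p = 0.11) in named sub-clusters only. In negative bins only, Vegfc in endothelial-like cells was 344 CPM, and Angpt1 in fibroblast-like cells 65.1 CPM.

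With each pool left out in turn, the endothelial counts ranged from 383 to 1812 (high minus negative) and 827 to 2694 (high minus low) in ATV-TfR, from 502 to 963 and 1541 to 1858 in ATV-CD98hc, and from 0 to 28 for the difference. Astrocyte low minus negative ranged from 58 to 233 and from 228 to 960, the pool comparisons from 0 to 93, 0 to 88 and 0 to 2, members in other classes from 8 to 10, and endothelial types from 5 to 6. With the replicate block, the pairing of bins within a pool, ATV-TfR high minus negative called 1841 and high minus low 2632, ATV-CD98hc 1351 and 2954, the difference of the ATVs 73, and astrocyte low minus negative 304 and 937. Member calls it changed stand in the report, apart from Tie1 in ATV-CD98hc astrocytes, low minus negative, which was 3.56 (adjusted p = 0.055) and 3.60 (adjusted p = 0.027) with the block. Control IgG high contrasts could not be fitted in endothelial-like cells.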
